A study of Mus musculus with 17 samples.

Results

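Cdkn2a, Cdkn2b, Cdkn2c, Cdkn2d and Cdkn1b code for inhibitors of the cyclin-dependent kinases, and their messenger RNA was measured by RNA sequencing in mouse skin during wound healing after ionizing radiation. They were taken as the rows of the deposited expression table that carry these gene names, 5 of 34140 genes, and 4 of them are the whole Ink4 family. All 5 passed the filter on low values, an expression of at least 1 FPKM (fragments assigned to the gene, scaled to its length and to the fragments assigned in the library) in at least 2 libraries, which 15271 genes passed. The irradiated groups are skin of C57/BL6j mice exposed to ionizing radiation and sampled at day 3 (3 libraries), day 6 (2 libraries) and day 9 (3 libraries) after injury. The control groups are C57/BL6j skin labelled control at days 0, 3 and 6 (2 libraries each) and day 9 (3 libraries), and day 0 was sampled in control skin only. The labels give neither the dose, field and timing of the radiation, nor the wound, nor the sex and age of the mice, and they do not say whether each library came from its own mouse, so every p-value measures the spread between these libraries, which may be technical. The comparisons ask which genes differ between irradiated and control wounds on the same day, and how they change as the wound ages.

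Ink4 proteins bind the kinases CDK4 and CDK6 and keep D-type cyclins from activating them, so that the retinoblastoma protein stays unphosphorylated and the cell waits in G1. Kip proteins, of which p27Kip1 from Cdkn1b is one, act mainly on cyclin E and cyclin A complexes with CDK2, and p27Kip1 is controlled to a large extent through its breakdown, started by the ubiquitin ligase subunit Skp2. In skin, p16Ink4a and p19Arf from Cdkn2a and p15Ink4b from Cdkn2b are known as brakes on keratinocyte and fibroblast growth and as markers of senescent cells, and Cdkn2b is a classical target of TGF-β through Smad proteins.

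In mm10, as the table gives positions, Cdkn2a (ENSMUSG00000044303) spans chr4:89274471-89294653 on the minus strand and Cdkn2b (ENSMUSG00000073802) lies beside it at chr4:89306289-89311032 on the same strand. Cdkn2c (ENSMUSG00000028551) is on the same chromosome at chr4:109660876-109667189 (minus), Cdkn2d (ENSMUSG00000096472) at chr9:21288410-21291407 (minus) and Cdkn1b (ENSMUSG00000003031) at chr6:134920401-134925513 (plus). GENCODE M21 lists 2 coding transcripts of Cdkn2a, 1 of Cdkn2b, 2 of Cdkn2c, 3 of Cdkn2d and 3 of Cdkn1b. No other gene annotated in M21 overlaps the span of any of the 5. The Cdkn2a row sums its transcripts, so p16Ink4a, the Ink4 inhibitor, and p19Arf, which stabilizes p53 by binding Mdm2, cannot be told apart in any value of this gene.

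RefSeq start sites on GRCm38.p6 were found for 5 of the 5 genes and gave 7 windows, because Cdkn2a and Cdkn2c each have a second start. The 250 bases before the start are shown, 5′ to 3′ on the gene's strand, for the genes whose level changed with time or radiation. The pair of Cdkn2a windows shows the separate starts that the single row adds up. Capitals mark exact matches on either strand to the motifs searched, which were an E2F site (TTTCGCGC, TTTGGCGC, TTTCCCGC or TTTGCCGC), a Sp1-type element known as the GC box, spelled GGGCGG here, the CCAAT box, whose letters are its name, a Smad box spelled with the 5 letters CAGAC, and a forkhead site spelled as GTAAACA. None of these motifs overlapped another in the windows shown. A match describes the letters only and does not show binding.
Cdkn2a, outer start (chr4:89294620-89294869, minus): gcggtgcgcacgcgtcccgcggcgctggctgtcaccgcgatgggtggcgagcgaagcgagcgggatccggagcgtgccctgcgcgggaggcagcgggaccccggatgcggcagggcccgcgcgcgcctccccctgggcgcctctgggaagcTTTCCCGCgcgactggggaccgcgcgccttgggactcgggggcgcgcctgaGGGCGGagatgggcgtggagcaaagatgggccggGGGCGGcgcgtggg
Cdkn2a, inner start (chr4:89282193-89282442, minus): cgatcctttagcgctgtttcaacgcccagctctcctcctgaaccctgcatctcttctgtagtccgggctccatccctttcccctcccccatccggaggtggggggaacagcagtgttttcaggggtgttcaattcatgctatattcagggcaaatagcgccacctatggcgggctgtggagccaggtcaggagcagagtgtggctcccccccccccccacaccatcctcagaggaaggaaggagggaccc
Cdkn2b (chr4:89311033-89311282, minus): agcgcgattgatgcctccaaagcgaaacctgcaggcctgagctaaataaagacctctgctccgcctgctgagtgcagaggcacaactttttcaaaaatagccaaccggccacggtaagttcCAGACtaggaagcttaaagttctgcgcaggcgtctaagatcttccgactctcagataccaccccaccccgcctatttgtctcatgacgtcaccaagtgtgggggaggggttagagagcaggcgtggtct
Cdkn1b (chr6:134920151-134920400, plus): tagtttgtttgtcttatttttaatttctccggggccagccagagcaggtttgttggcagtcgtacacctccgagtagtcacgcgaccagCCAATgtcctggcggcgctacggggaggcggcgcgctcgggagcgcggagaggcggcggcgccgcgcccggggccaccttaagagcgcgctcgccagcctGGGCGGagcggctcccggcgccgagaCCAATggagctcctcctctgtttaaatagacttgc

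The outer Cdkn2a window is 78.4% G and C, against a median of 52.4% over all 32851 windows. It holds 1 E2F site and 2 GC boxes, motifs with at least 1 match in 1.86% and 32.742% of all windows. These shares were not matched for G and C content. The inner window has none of the 5 motifs and is 60.0% G and C. Cdkn2b has 1 Smad box, a 5-letter motif found in 42.194% of all windows. Cdkn1b has 1 GC box and 2 CCAAT boxes, a motif in 33.85% of windows, and no forkhead site, which 3.166% of windows have. The CCAAT and Smad boxes are so common that their presence sets neither gene apart.

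Cdkn1b was the most abundant of the 5 at the RNA level, with a mean of 16.2 FPKM over the 17 libraries (lowest 10.98, highest 23.4). Cdkn2c and Cdkn2d averaged 12.5 FPKM each, with ranges of 7.92 to 16.4 and 10.1 to 14.7. Cdkn2b averaged 7.49 FPKM (3.01 to 13.5). Cdkn2a was the lowest at 1.42 FPKM (0.443 to 3.96) and reached 1 FPKM in 10 of the 17 libraries. Its values rest on 14 to 137 fragments per library, while those of Cdkn2b rest on 125 to 557 and those of the other 3 genes on 442 to 3172. Counting error alone is therefore wide for Cdkn2a: the library with 14 fragments, control day 0 replicate 1 at 0.470 FPKM, has an exact 95% Poisson interval of 0.257 to 0.788 FPKM.

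**Figure D1:**
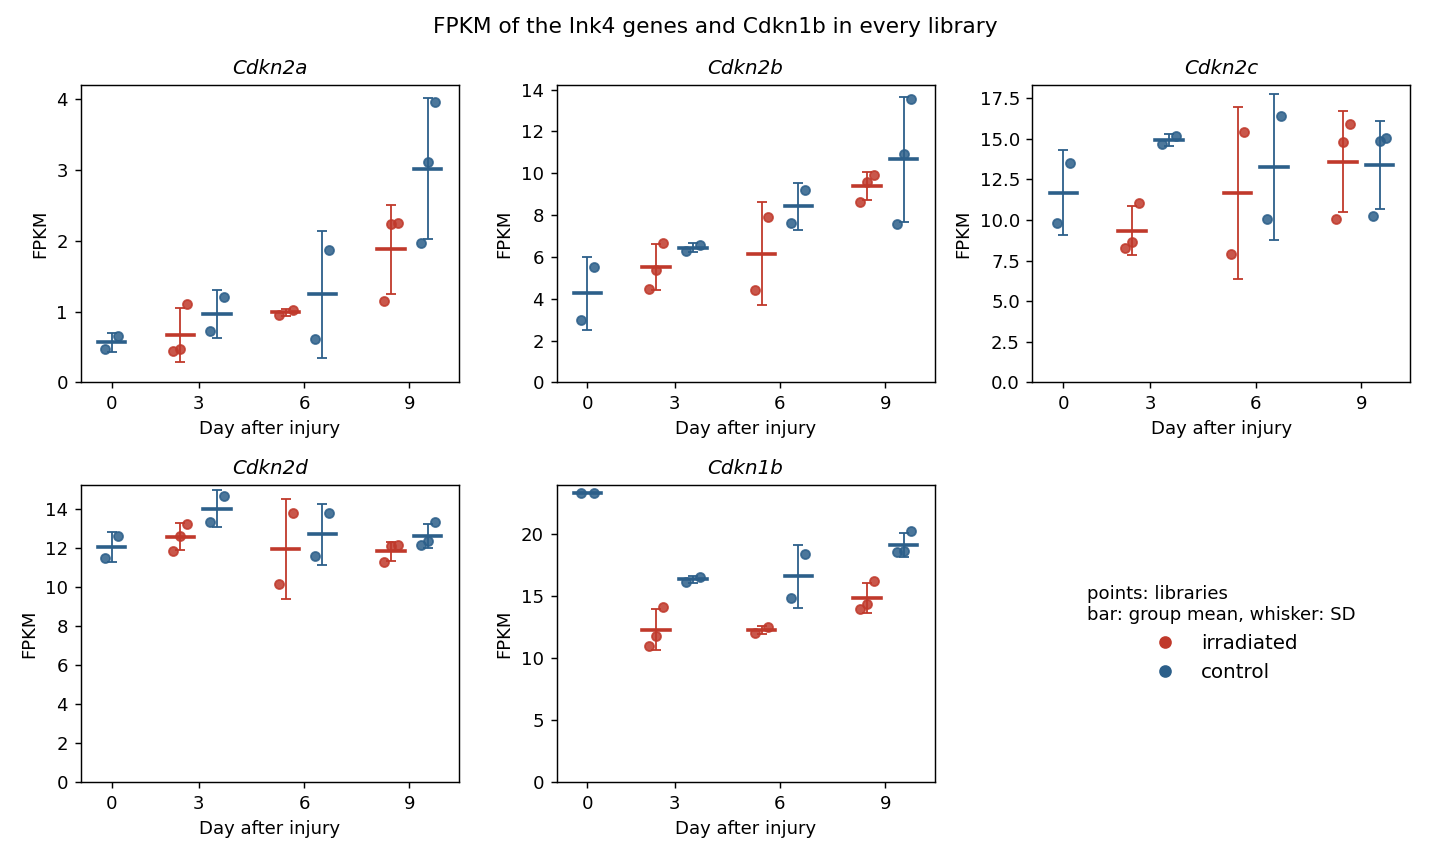
Expression (FPKM, vertical axis from 0) of the 5 genes in every library against day after injury, irradiated in red and control in blue, with points for libraries, bars for group means and whiskers for the SD. Cdkn2a and Cdkn2b are highest at day 9 in both arms, Cdkn1b is highest at control day 0 (23.3 and 23.4 FPKM), and on days 3, 6 and 9 every irradiated point of Cdkn1b lies below the control points of its day.

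Among these genes, radiation was followed by a lower level of Cdkn1b, the gene of p27Kip1, and by no called change of an Ink4 gene. On day 3 Cdkn1b had 10.98, 14.1 and 11.8 FPKM in irradiated skin, against 16.6 and 16.2 FPKM in control skin. On day 6 it had 12.5 and 12.03 FPKM in irradiated skin, against 14.8 and 18.4 FPKM in control skin. On day 9 it had 13.9, 16.3 and 14.4 FPKM in irradiated skin, against 18.6, 18.6 and 20.2 FPKM in control skin. The groups did not overlap on any of the 3 days, and the irradiated library was the lower one in 6 of 6, 4 of 4 and 9 of 9 same-day pairs. The share of all genes that separate in this way was not counted. Overlap is therefore a description only, here and in later paragraphs. Across days they did overlap, since the highest irradiated library (16.3 FPKM, day 9) exceeded the lowest control library (14.8 FPKM, day 6).

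Averaged over the 3 days, Cdkn1b fell by 0.38 on the log2(FPKM + 1) scale (SE 0.064, 95% interval -0.52 to -0.24, adjusted p = 0.00417, limma with Benjamini-Hochberg adjustment over all 15271 genes), a ratio of 0.768. Pooled over the days, the mean was 13.3 ± 1.73 FPKM in irradiated skin (SD, n = 8) and 17.6 ± 1.84 FPKM in control skin (SD, n = 7). It was the 1 gene of the 5 with an adjusted p under 0.05 in this averaged comparison, in which 2.57% of all tested genes were called lower and 4.36% higher. In 26 of 26 alternative settings the call was kept, with values between -0.43 and -0.30 and adjusted p between 0.0018 and 0.0175. In a single day it did not reach the threshold: the difference was -0.39 (adjusted p = 0.128) on day 3, -0.40 (0.179) on day 6 and -0.35 (0.0635) on day 9, and the day 9 difference passed it in 4 of 17 alternatives.

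These are bulk libraries, in which fewer cells of a type and less RNA per cell cannot be told apart. Of the 14 cell type marker lists, 12 had summed levels that did not overlap between irradiated and control skin on at least 1 day. Groups of 2 or 3 libraries can separate by chance, and the share of all genes that separate was not counted. This count is therefore a description only. By these sums the arms compared as follows. Irradiated skin was higher for macrophages on all 3 days, for mast cells on days 3 and 9, for adipocytes on days 6 and 9, for wound keratinocytes on day 9 and for melanocytes on day 3. It was lower for T cells, suprabasal keratinocytes and red blood cells on days 3 and 6, for endothelium on day 3 and for hair follicle on day 6. The hair follicle sums of day 6 were low, 1.22 to 1.29 FPKM in irradiated and 1.61 to 5.80 FPKM in control skin over 6 markers. Of the 6 T cell markers, 4 passed the filter on low values. Basal keratinocytes were lower on day 3 and higher on day 9, and fibroblasts were higher on day 3 and lower on day 9. The summed level of 6 macrophage markers, all detected, was 1026 to 1370 FPKM in irradiated skin and 651 to 788 FPKM in control skin on day 3, 1022 to 1341 against 470 to 643 on day 6, and 802 to 1061 against 513 to 663 on day 9. The 5 red blood cell markers summed to 2.03 to 8.34 FPKM in irradiated skin and 155 to 210 FPKM in control skin on day 3, to 0.758 to 1.34 against 84.7 to 133 on day 6, and to 52.0 to 80.1 against 76.6 to 198 on day 9. The 5 suprabasal keratinocyte markers summed to 1952 to 2278 FPKM in irradiated skin and 2829 to 3101 FPKM in control skin on day 3, and to 1341 to 4199 against 4405 to 5607 on day 6. The 6 T cell markers summed to 1.51 to 2.36 FPKM in irradiated skin and 2.83 to 4.74 FPKM in control skin on day 3, and to 2.52 to 2.77 against 8.62 to 16.6 on day 6. By gene, 5 of 5 red blood cell markers were called lower on day 3 and 4 of 5 on day 6 (0.288% and 0.124% of all genes). On day 9, 4 of 5 mast cell and 2 of 5 adipocyte markers were called higher (2.33% of all genes). No marker of another list was called on a single day. On average, 2 of 6 macrophage, 2 of 5 mast cell and 2 of 5 adipocyte markers were called higher (4.36% of all genes). In the same averaged comparison, 5 of 5 red blood cell markers were called lower (2.57% of all genes). The part of any of these cell types in the Cdkn1b result was not tested.

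Of the Ink4 genes, none of the 4 was called on any day or on average when all libraries had equal weight. On day 3, when 0.288% of all genes were called lower and 1.56% higher, Cdkn2c, the gene of p18Ink4c, had 8.66, 11.1 and 8.28 FPKM in irradiated skin, against 14.7 and 15.2 FPKM in control skin. The groups did not overlap, and the difference of -0.63 (95% interval -1.25 to -0.01) had an adjusted p of 0.425. Cdkn2d, the gene of p19Ink4d, had 12.6, 13.2 and 11.8 FPKM in irradiated skin, against 13.3 and 14.7 FPKM in control skin, again without overlap but with a smaller difference of -0.15 (adjusted p = 0.72). Cdkn2a (0.443, 0.466 and 1.11 FPKM irradiated, 0.726 and 1.21 FPKM control) and Cdkn2b (6.67, 4.46 and 5.39 FPKM irradiated, 6.28 and 6.59 FPKM control) overlapped between the groups.

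On day 6, when 0.124% of all genes were called lower and 0.151% higher, none of the 5 genes was called and the 4 Ink4 genes overlapped between the groups. Replicates stood far apart on that day. Cdkn2c had 7.92 and 15.4 FPKM in irradiated skin, against 10.1 and 16.4 FPKM in control skin. Cdkn2b had 4.43 and 7.90 FPKM in irradiated skin, against 7.62 and 9.21 FPKM in control skin (-0.43, adjusted p = 0.487). Cdkn2a had 1.02 and 0.954 FPKM in irradiated skin, against 0.610 and 1.87 FPKM in control skin. The control library with the higher Cdkn2a value was also the higher one for Cdkn2b, Cdkn2c and Cdkn1b and the lower one for Cdkn2d. Cdkn2d had 13.8 and 10.1 FPKM in irradiated skin, against 13.8 and 11.6 FPKM in control skin.

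On day 9, when 3.05% of all genes were called lower and 2.33% higher, none of the 5 genes was called. Cdkn2a had 2.24, 2.24 and 1.15 FPKM in irradiated skin, against 3.11, 3.96 and 1.97 FPKM in control skin. Only the lowest control library lay within the irradiated range, and the difference of -0.47 (95% interval -1.03 to 0.08) had an adjusted p of 0.295. Cdkn2b had 8.64, 9.92 and 9.60 FPKM in irradiated skin, against 10.9, 13.5 and 7.57 FPKM in control skin (-0.14, adjusted p = 0.767). Cdkn2c had 10.1, 14.8 and 15.9 FPKM in irradiated skin, against 14.8, 15.04 and 10.3 FPKM in control skin, a difference of 0.02 with a 95% interval of -0.54 to 0.57. Cdkn2d had 11.3, 12.1 and 12.1 FPKM in irradiated skin, against 12.4, 12.2 and 13.3 FPKM in control skin, without overlap and with a difference of -0.09 (-0.31 to 0.14).

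Averaged over the days, the differences were -0.28 for Cdkn2a (95% interval -0.64 to 0.08, adjusted p = 0.347), -0.26 for Cdkn2b (-0.59 to 0.07, 0.338), -0.27 for Cdkn2c (-0.63 to 0.09, 0.357) and -0.11 for Cdkn2d (-0.25 to 0.04, 0.367). The intervals therefore hold both no difference and, for Cdkn2a, Cdkn2b and Cdkn2c, a fall as large as that of Cdkn1b. They hold no rise above 0.09 on the log2 scale. The median difference over all 15271 genes was -0.01. The test of whether the radiation effect itself differed between the 3 days called 0.0131% of all genes and none of the 5, with adjusted p between 0.581 and 0.969.

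**Figure D2:**
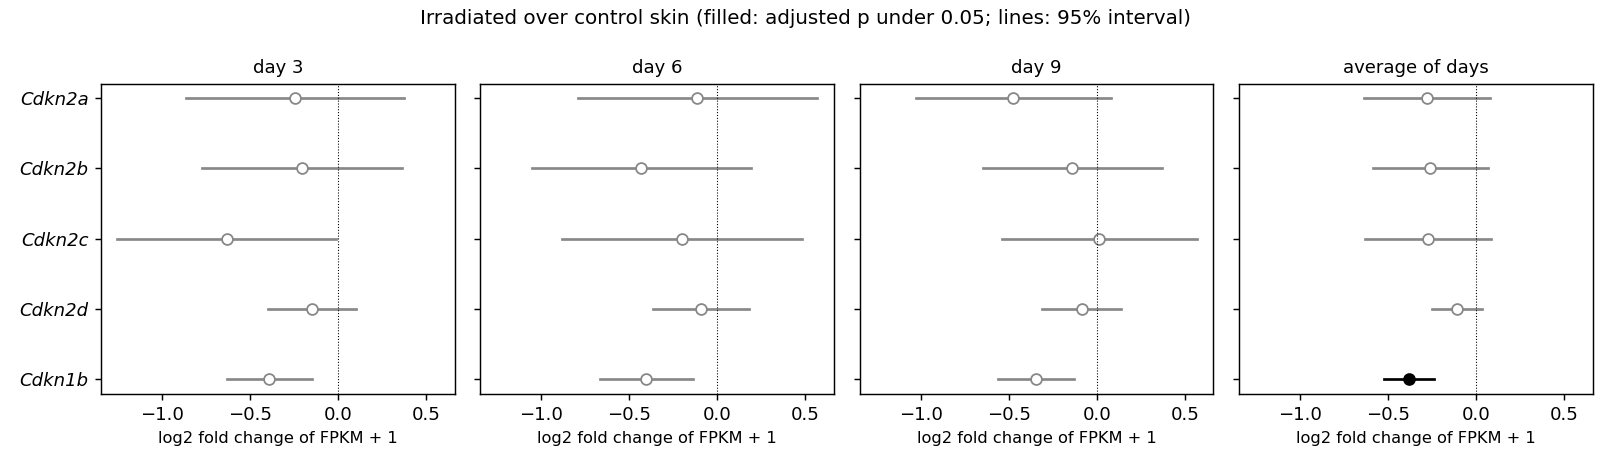
Difference between irradiated and control skin on the log2(FPKM + 1) scale (horizontal axis, 1 row per gene) on days 3, 6 and 9 and averaged, with 95% intervals and filled points where the adjusted p is under 0.05. The 1 filled point is the averaged Cdkn1b value of -0.38, and the intervals of the Ink4 genes reach or come near 0 in every panel.

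In control skin, against day 0, Cdkn2a and Cdkn2b were higher at day 9 and Cdkn1b was lower at days 3 and 6. Cdkn2a had 3.11, 3.96 and 1.97 FPKM at control day 9, against 0.470 and 0.658 FPKM at control day 0. Every day 9 library was above both day 0 libraries, with a log2 difference of 1.33 (SE 0.285, adjusted p = 0.00228, limma). Cdkn2b had 10.9, 13.5 and 7.57 FPKM at control day 9, against 5.50 and 3.01 FPKM at control day 0, again with no overlap, and a log2 difference of 1.16 (SE 0.261, adjusted p = 0.00309). These 2 calls were kept in every alternative that tested the genes, 15 for Cdkn2a and 16 for Cdkn2b. Their size depended on the scale: the Cdkn2a difference was 0.52 with a pseudocount of 5 FPKM, 2.19 with one of 0.1 FPKM and 2.34 by limma-voom on recovered fragments, and that of Cdkn2b lay between 0.76 and 1.51 over the alternatives. Beside them, 30.4% of all genes were called higher and 18% lower at day 9, so that being called is common in this comparison.

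Both genes had intermediate means at control days 3 and 6, and before day 9 only Cdkn2b was called, at day 6. For days 0, 3, 6 and 9 the means were 0.564, 0.967, 1.24 and 3.01 FPKM for Cdkn2a. For Cdkn2b they were 4.26, 6.43, 8.42 and 10.7 FPKM. Day 9 was not compared with day 6. At control day 3 Cdkn2a had 0.726 and 1.21 FPKM and at control day 6 0.610 and 1.87 FPKM, and neither day was called against day 0 (log2 differences 0.32 and 0.46, adjusted p = 0.446 and 0.27). Against control day 3, Cdkn2a at control day 9 was 1.01 higher on the log2 scale (adjusted p = 0.0304), in a comparison that called 8.02% of all genes higher and 10.2% lower, and that call was lost when any 1 of control day 3 replicates 1 and 3 or control day 9 replicates 1 and 2 was left out (adjusted p up to 0.177, differences 0.42 to 1.62 over all alternatives). Cdkn2b had 6.28 and 6.59 FPKM at control day 3 (0.54, adjusted p = 0.155) and 7.62 and 9.21 FPKM at control day 6 (0.88, adjusted p = 0.0311). The day 6 call of Cdkn2b was kept in 6 of 15 alternatives and was lost without control day 0 replicate 2 and without either control day 6 library (adjusted p up to 0.218 and differences of 0.53 to 1.23 over the alternatives). Cdkn2b at control day 9 was 0.62 above control day 3 (adjusted p = 0.118), with no overlap.

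Cdkn1b had 23.3 and 23.4 FPKM at control day 0, the highest values of the gene in the series. It had 16.6 and 16.2 FPKM at control day 3 (log2 difference -0.49, SE 0.122, adjusted p = 0.00799) and 14.8 and 18.4 FPKM at control day 6 (-0.47, adjusted p = 0.0101). At control day 9 it had 18.6, 18.6 and 20.2 FPKM, below day 0 without overlap but not called (-0.28, adjusted p = 0.0582). Other scalings did call it lower at day 9. The difference was -0.42 with median-of-ratios scaling (adjusted p = 0.00529), -0.35 with quantile normalization (0.0192) and -0.56 rescaled to nuclear genes (0.00197). With a pseudocount of 5 FPKM it was -0.23 (0.046). All genes called lower made up 12.4% of those tested on day 3 and 14.2% on day 6, and all genes called higher made up 25.8% and 21.1%. Fitted on the compared groups alone, the Cdkn1b calls of day 3 (adjusted p = 0.0606) and day 6 (0.178) were lost, and the day 6 call was also lost with array quality weights and without control day 6 replicate 1. Rescaled to nuclear genes, the day 3 and day 6 differences were both -0.76. Cdkn1b did not keep falling after day 3. At control day 9 it was 0.21 above control day 3, without overlap and without a call (limma, adjusted p = 0.204). Cdkn2c and Cdkn2d were not called in any comparison with day 0, with log2 differences of 0.15 to 0.34 for Cdkn2c and 0.06 to 0.20 for Cdkn2d, and under another scaling the sign turned for Cdkn2d on all 3 days and for Cdkn2c on days 6 and 9.

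Day 0 skin differed from all wounds in composition as well as time. The 5 skeletal muscle markers summed to 1100 to 3868 FPKM in the wounds of days 3 to 9, against 15417 to 18305 FPKM at control day 0, and mitochondrial genes took 8.33% to 12.6% of the summed FPKM in those wounds, against 31.8% and 21.7% at day 0. The 4 wound keratins Krt6a, Krt6b, Krt16 and Krt17 summed to 2753 FPKM or more in every later library, against 234 to 613 FPKM at day 0. Fibroblast markers, 6 of 6 detected, summed to 7145 to 8823 FPKM at control day 9, against 799 to 2670 FPKM at control day 0. The part of these shifts in the changes of Cdkn2a, Cdkn2b and Cdkn1b was not tested. The scale of the comparison moves too: the median difference of all genes against day 0 was 0.16, 0.11 and 0.15 on days 3, 6 and 9, and other scalings moved it by -0.10 to -0.23. Measured from that median, Cdkn2a and Cdkn2b remain more than 1 log2 unit higher at day 9 and Cdkn1b stands lower by more than its printed value.

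**Figure D3:**
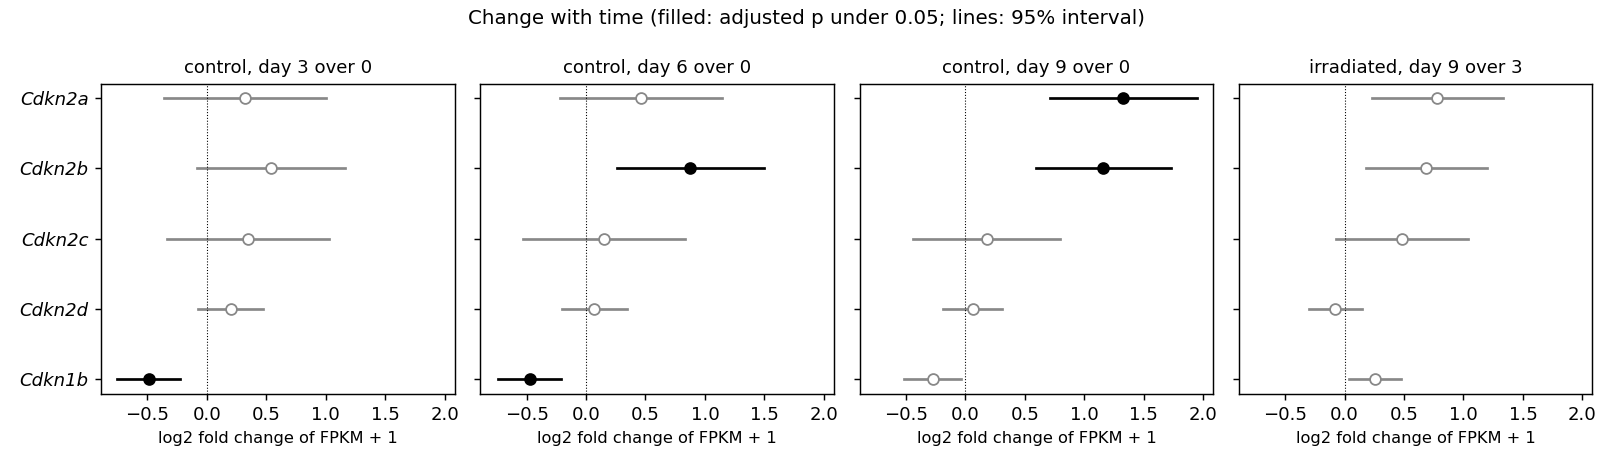
Difference with time on the log2(FPKM + 1) scale (horizontal axis, 1 row per gene) for control days 3, 6 and 9 over control day 0 and for irradiated day 9 over irradiated day 3, with 95% intervals and filled points where the adjusted p is under 0.05. Filled points show Cdkn1b lower at control days 3 and 6, Cdkn2b higher at control days 6 and 9 and Cdkn2a higher at control day 9 (1.33), and no point is filled for irradiated skin.

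In irradiated skin the same 2 Ink4 genes were higher at day 9 than at day 3 in value, without a call. Cdkn2a had 2.24, 2.24 and 1.15 FPKM at irradiated day 9, against 0.443, 0.466 and 1.11 FPKM at irradiated day 3 (log2 difference 0.78, 95% interval 0.23 to 1.33, adjusted p = 0.151). Cdkn2b had 8.64, 9.92 and 9.60 FPKM at irradiated day 9, against 6.67, 4.46 and 5.39 FPKM at irradiated day 3 (0.69, 0.18 to 1.19, adjusted p = 0.168). Neither gene overlapped between the days. Cdkn2c (0.48, adjusted p = 0.384), Cdkn1b (0.26, 0.227) and Cdkn2d (-0.08, 0.758) overlapped. In this comparison 0.38% of all genes were called higher and 0.583% lower, so few genes of any kind passed, and 2472 genes had an unadjusted p under 0.05. There is no irradiated day 0 library among those analysed here, so the irradiated time course has no baseline.

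Ranked by group mean, Cdkn2a ran from control day 9 (3.01 ± 0.996 FPKM, n = 3) through irradiated day 9 (1.88 ± 0.628, n = 3), control day 6 (1.24 ± 0.894, n = 2), irradiated day 6 (0.989 ± 0.049, n = 2), control day 3 (0.967 ± 0.341, n = 2) and irradiated day 3 (0.672 ± 0.377, n = 3) to control day 0 (0.564 ± 0.133, n = 2; SD throughout), and each neighbouring pair overlapped. Cdkn2b had the same groups at the top, control day 9 (10.7 ± 2.99 FPKM, n = 3) and irradiated day 9 (9.39 ± 0.662, n = 3), and control day 0 (4.26 ± 1.76, n = 2) at the bottom, and of its neighbours only control day 6 and control day 3 did not overlap. Cdkn1b ran in a different order, with the 4 control groups above the 3 irradiated ones, from control day 0 (23.4 ± 0.00486 FPKM, n = 2) to irradiated day 6 (12.3 ± 0.328, n = 2). Among its neighbours, control day 0 and control day 9, and control day 9 and control day 6, did not overlap. All neighbours overlapped for Cdkn2c, from control day 3 (14.9 ± 0.358 FPKM, n = 2) to irradiated day 3 (9.34 ± 1.52, n = 3), and for Cdkn2d, from control day 3 (14.0 ± 0.944 FPKM, n = 2) to irradiated day 9 (11.8 ± 0.486, n = 3).

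The other Cip/Kip genes, Cdkn1a and Cdkn1c, moved in opposite directions after radiation, and Cdkn1b moved with Cdkn1c. Cdkn1a, the gene of p21Cip1 and a textbook p53 target, had 204, 207 and 204 FPKM in irradiated skin on day 3, against 114 and 90.5 FPKM in control skin. It had 182 and 162 FPKM in irradiated skin on day 6, against 94.8 and 80.9 FPKM in control skin. On day 9 it had 140, 127 and 134 FPKM in irradiated skin, against 51.9, 54.3 and 77.1 FPKM in control skin. The groups did not overlap on any day, and the averaged difference was 1.04 (SE 0.122, adjusted p = 0.00059, limma), a ratio of 2.05.

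Cdkn1c, the imprinted gene of p57Kip2, had 3.46, 6.30 and 4.17 FPKM in irradiated skin on day 3, against 8.35 and 6.29 FPKM in control skin, and these overlapped. It had 3.46 and 7.13 FPKM in irradiated skin on day 6, against 17.9 and 21.4 FPKM in control skin. On day 9 it had 8.68, 7.86 and 7.64 FPKM in irradiated skin, against 36.1, 39.1 and 29.8 FPKM in control skin. The averaged difference was -1.44 (SE 0.231, adjusted p = 0.00299) and that of day 9 was -1.98 (adjusted p = 0.0121, lost without control day 9 replicate 2 or irradiated day 9 replicate 3, up to 0.0616). The test for a radiation effect that differs between days gave an adjusted p of 0.332 for Cdkn1c and 0.915 for Cdkn1a. In control skin Cdkn1c was 1.48 higher at day 9 than at day 0 and Cdkn1a fell by 0.78 on the log2 scale (adjusted p = 0.00916 and 0.00909), the reverse of each gene's radiation effect, and both calls were lost with only the groups compared. The day 0 libraries stood far apart for both genes. Without control day 0 replicate 1 the Cdkn1c difference was 0.61, no longer called, and without replicate 2 it was 2.34, while for Cdkn1a these values were -1.17 and -0.39, the second no longer called.

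**Figure D4:**
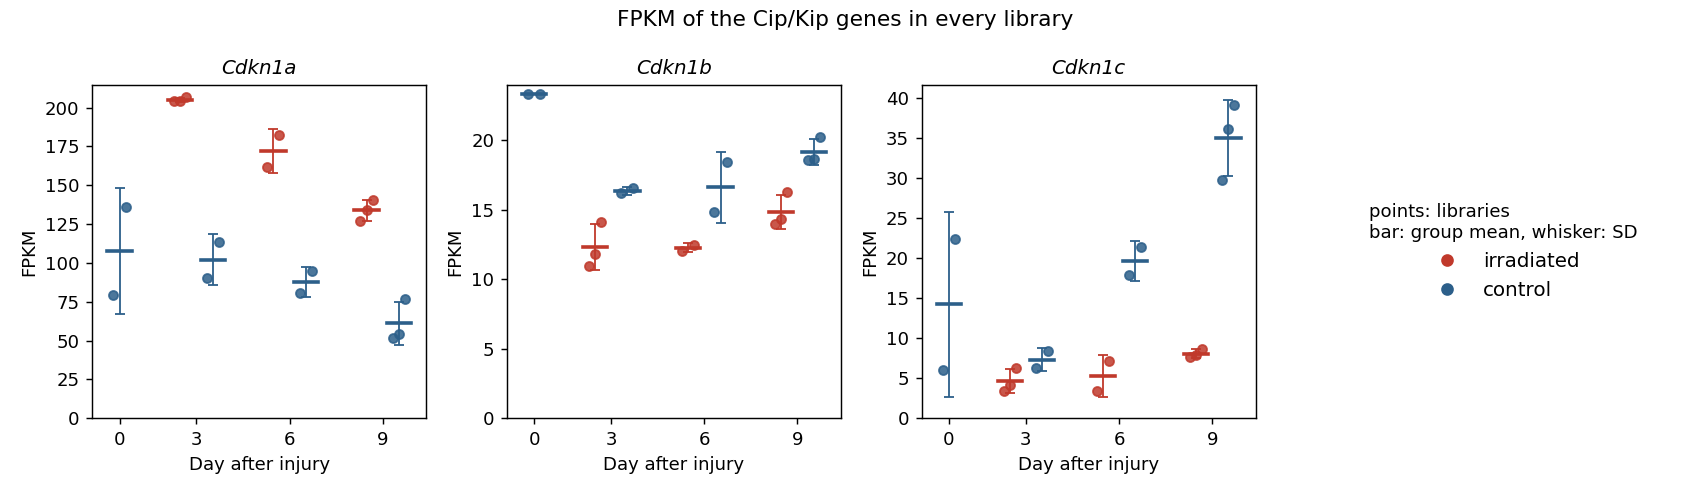
Expression (FPKM, vertical axis from 0) of Cdkn1a, Cdkn1b and Cdkn1c in every library against day after injury, irradiated in red and control in blue, with points for libraries, bars for group means and whiskers for the SD. Irradiated points lie above control for Cdkn1a and below control for Cdkn1b on each day, and for Cdkn1c the gap is widest at day 9 (7.64 to 8.68 FPKM irradiated, 29.8 to 39.1 FPKM control).

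The targets of these inhibitors were described with lists chosen from general knowledge, whose averaged counts stand against 4.36% of all genes called higher and 2.57% called lower. Among the 5 D cyclins and their kinases, 2 rose after radiation on average and none fell (median 0.16, against -0.01 for all genes). They were Ccnd1 (0.59, adjusted p = 0.0264) and Ccnd2 (0.39, 0.0307), cyclins that activate the kinases Ink4 proteins inhibit, with adjusted p up to 0.0742 and 0.0908 over the alternatives. Either call was lost when any 1 of irradiated day 3 replicate 1, irradiated day 9 replicate 3, control day 3 replicates 1 and 3 and control day 6 replicate 1 was left out, and that of Ccnd2 also without irradiated day 3 replicate 2, day 6 replicate 1 or day 9 replicate 1. By day, Ccnd1 differed by 0.61, 0.42 and 0.74 on days 3, 6 and 9, and Ccnd2 by 0.65, 0.61 and -0.10. None of these single-day values was called. Neither was a difference between the days (limma F test, adjusted p = 0.844 for Ccnd1 and 0.243 for Ccnd2). The kinases themselves were not called on average, with -0.13 for Cdk4 (adjusted p = 0.234) and 0.16 for Cdk6 (0.421). Of 9 E, A and B cyclins and their kinases, 1 fell and none rose (median -0.12): Cdk2, the main target of p27Kip1, by 0.23 on the log2 scale (adjusted p = 0.0399, lost in 13 of 26 alternatives, up to 0.109, among them the omission of either control day 3 library, of irradiated day 3 replicate 1 or 2, day 6 replicate 1 or day 9 replicate 1 or 3, or of control day 6 replicate 2 or day 9 replicate 1 or 2). None of 13 retinoblastoma family and E2f genes was called (median -0.03), and Rb1 differed by 0.07 (adjusted p = 0.719).

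None of 15 genes for p27 turnover and transcription was called after radiation on average (median 0.00185), nor on any single day. Skp2, the receptor that marks p27Kip1 for degradation, differed by -0.16 (adjusted p = 0.23). Of 22 proliferation genes none was called on average (median -0.10), and Mki67, the Ki-67 antigen of cycling cells, had 14.2 ± 3.70 FPKM in irradiated skin (SD, n = 8) and 18.0 ± 3.83 FPKM in control skin (SD, n = 7), a difference of -0.38 (adjusted p = 0.0662) that passed the threshold in 8 of 26 alternatives. On day 3, when 0.288% of all genes were called lower, the median of the 22 was -0.46 and 1 gene fell, Tyms, the thymidylate synthase (-0.44, adjusted p = 0.0255), a call lost without any 1 of the 5 day 3 libraries (up to 0.319). On day 9 the median was 0.20 with no call.

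Of 26 regulators of the Ink4 locus, 1 rose on average and none fell (median -0.07), a share near the 4.36% of all genes called higher. It was Myc (0.26, adjusted p = 0.0375), a call kept in 12 of 26 alternatives and lost without irradiated day 3 replicate 1 or 3, day 6 replicate 1 or day 9 replicate 2 or 3, and without control day 3 replicate 1 or 3, day 6 replicate 2 or day 9 replicate 1 or 2 (up to 0.124). The Polycomb genes that repress the locus, Bmi1 (-0.05, adjusted p = 0.577) and Ezh2 (-0.21, 0.0597), were not called. On day 9, when 3.05% of all genes were called lower, 2 of the 26 fell, the Polycomb genes Rnf2 (-0.31, adjusted p = 0.048) and Phc1 (-0.47, 0.0349), and the first call was lost without any 1 of the 6 day 9 libraries and the second without any but control day 9 replicate 3 (adjusted p up to 0.188 and 0.141). Of 5 Arf partners 1 rose, Mdm2 (0.54, adjusted p = 0.00618), which is both the protein that p19Arf binds and a p53 target. Mtap, the neighbour of the locus, differed by 0.01 (adjusted p = 0.945).

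Of 20 senescence-associated genes, 2 rose and 2 fell on average (median 0.24), against 4.36% of all genes higher and 2.57% lower. Ccl2, a chemokine that draws monocytes, was 2.57 higher (adjusted p = 0.00281) and Gdf15, a stress cytokine, 0.72 higher (0.00113). Lmnb1, the lamin lost from senescent nuclei, had 18.3 ± 3.08 FPKM in irradiated skin (SD, n = 8) and 24.2 ± 3.86 FPKM in control skin (SD, n = 7), a difference of -0.43 (adjusted p = 0.0108), and Hmgb1, a chromatin protein, differed by -0.25 (0.0177, lost without control day 3 replicate 3 at 0.0597). The Ink4 genes most used as senescence markers, Cdkn2a and Cdkn2b, were not called in the same comparison. On day 9, when 3.05% of all genes were called lower, 1 of the 20 fell, Igfbp3 (-0.78, adjusted p = 0.00415, kept in 17 of 17 alternatives). Igfbp3 differed by 0.18 on day 3 and 0.41 on day 6, neither called. It was also called for an effect differing between days (limma F test, adjusted p = 0.0437). That test called 0 genes with a pseudocount of 0.1.

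**Figure D5:**
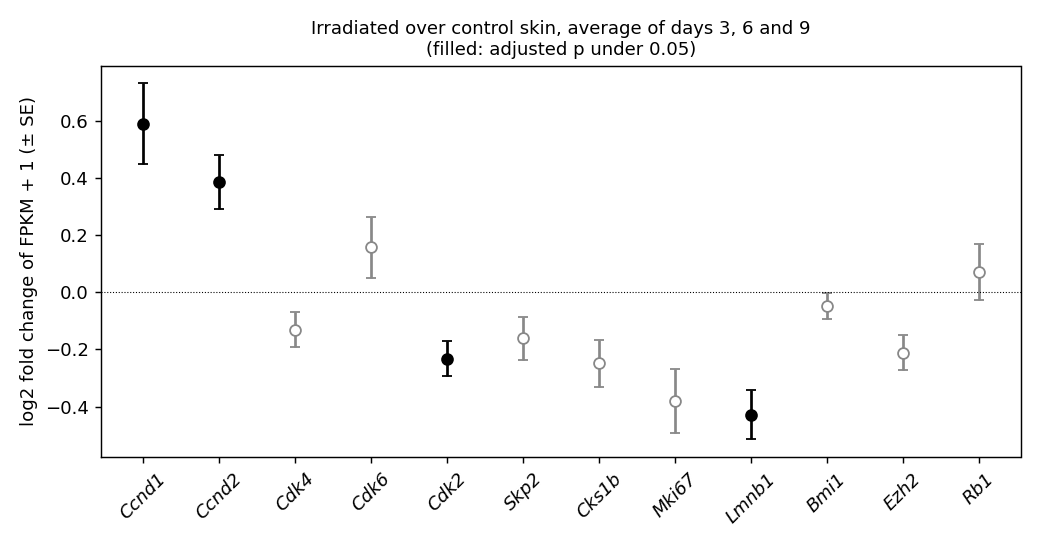
Averaged difference between irradiated and control skin (log2(FPKM + 1) scale, vertical axis, bars are the SE) for kinases, cyclins and regulators linked to the 5 inhibitors. Filled points, with an adjusted p under 0.05, are Ccnd1 (0.59) and Ccnd2 (0.39) above 0 and Cdk2 (-0.23) and Lmnb1 (-0.43) below it.

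In control skin at day 9 against day 0, while Cdkn2a and Cdkn2b rose, 22 of 22 proliferation genes rose as well (median 1.13, against 0.15 for all genes), in a comparison that called 30.4% of all genes higher and 18% lower. Mki67 had 17.1 ± 3.27 FPKM at day 9 (SD, n = 3) and 5.15 ± 1.99 FPKM at day 0 (SD, n = 2). Of the D cyclins and their kinases 4 of 5 rose, among them Cdk4 (1.20, adjusted p = 9.14e-06) and Ccnd2 (1.21, 0.000108), while Ccnd1 differed by 0.06. Of the 9 E, A and B cyclins and their kinases 8 rose. Among the 15 genes for p27 turnover and transcription 4 rose and 6 fell: Skp2 (1.005) and its partner Cks1b (1.28) rose, while Ubac1, of another ligase for p27, and Foxo4, of a transcription factor family that activates Cdkn1b, fell (-1.31 for each). Among the 26 regulators of the Ink4 locus 8 rose and 4 fell, shares close to those of all genes. Of these, Cbx7, a Polycomb repressor of the locus, fell (-1.27, adjusted p = 0.000121) while Ezh2 rose (0.47, 0.00327, lost on rescaling to nuclear genes). Bmi1 was called higher too (0.27, adjusted p = 0.0119, kept in 11 of 16 alternatives). Mtap, next to Cdkn2a, rose by 1.01 (adjusted p = 9.48e-05). All 22 proliferation genes were already called higher at control day 3 against day 0 (median 1.70, with 25.8% of all genes called higher). From control day 3 to control day 9, when Cdkn2a was 1.01 higher, none of the 22 was called higher and 11 were called lower (median -0.48). That comparison called 8.02% of all genes higher and 10.2% lower.

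The 5 genes did not share 1 pattern over the 17 libraries. The closest pair was Cdkn2a and Cdkn2b (Pearson r 0.76 of log2(FPKM + 1)), and the other pairs lay between -0.29 and 0.47. The libraries share days and arms, so these values describe the series and are not tests. Among 12163 named protein-coding genes, the patterns most like Cdkn2a were those of H2afy2 (r 0.93), Tcf3, Mex3a and Cacna1g (0.92 each). Those most like Cdkn2b were Calml3 (0.94), Krt1 (0.92), Zfp266 (0.92) and Epha4 (0.91). Krt1 is a keratin of differentiating epidermis, and the 5 suprabasal keratinocyte markers summed to 2905 to 6649 FPKM at control day 9, against 1736 to 3679 FPKM at control day 0, and to 2755 to 5724 FPKM at irradiated day 9, against 1952 to 2278 FPKM at irradiated day 3. Their part in the Cdkn2b changes was not tested.

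Cdkn2c was most like Zkscan1 (r 0.86), Pank3 (0.83), Dok4 and Irx4 (0.82 each), and genes whose pattern was like that of Cdkn2d included Celf1 (0.78), Mtdh and Spcs3 (0.74 each). Cdkn1b had the closest match of all, Ccdc28b (r 0.96), followed by Nipal3, Zfp629 and Klhl23 (0.92 each).

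The libraries held 25440773 to 30797408 assigned fragments. The defining markers of skin, those of basal and suprabasal keratinocytes and of fibroblasts, were all detected in every library. Hair follicle markers stood highest at day 9, with 46.1 to 119 FPKM summed in irradiated skin and 49.2 to 811 FPKM in control skin. Groups of 2 or 3 libraries leave the single-day comparisons with wide intervals.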

How the data were processed

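RNA of skin was sequenced from Smart-Seq2 libraries, per the labels. The authors deposited 1 table of FPKM for 17 libraries and 34140 genes. The aligner was HISAT2 2.2.1 and the build mm10, as the submitters' processing notes name them. Which counter and annotation followed is not given in the sources used here. FPKM steps gave whole fragments for 99.975% of nonzero values (tolerance 0.01 fragments, gene lengths from GENCODE M21 or fitted). With M21 lengths alone, 31473 of the 34140 genes were whole in every library. Fitted lengths, that of Cdkn2b among them, were chosen to give whole fragments, so for them the agreement is no check. The recovered fragments give the depths and counting intervals, which cover counting error only.

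Genes with at least 1 FPKM in at least 2 libraries (15271) were fitted as log2(FPKM + 1) with limma 3.58.1 (trend) in R 4.3.3, with 7 group means from all 17 libraries; an adjusted p under 0.05 (Benjamini-Hochberg) calls a gene. Tests on simulated data preceded the fits. Alternatives were pseudocounts of 0.1 and 5, no filter or a minimum of 5 FPKM, median-of-ratios, quantile and nuclear-gene scaling, limma-voom on recovered fragments, array quality weights, only the groups compared, a replicate block and single libraries left out.

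The 5 genes and the lists were chosen with earlier results of these data known. Besides them, the text names 12 set genes, up to 4 called genes per list and comparison with the largest change and a mean of at least 1 FPKM in the higher group, and the 4 genes most like each of the 5, of which 1 is not reported here. Promoter windows come from RefSeq on GRCm38.p6.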

Additional observations from a re-analysis of the deposited data

How the results depend on the processing

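Of 1839 alternative values for 98 results (the 5 genes in every comparison, and the other genes named above in theirs), 1639 kept their direction and side of the threshold, 129 lost a call, 30 gained one and 41 changed sign; a change of sign in a called result occurred for Bmi1 alone (-0.00702 at control day 9 against day 0 after rescaling to nuclear genes, which was chosen after seeing the data). The cause of these changes was not tested.

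Counts of the 5 genes called moved as follows. For irradiated against control on day 3 (0 as reported) array quality weights gave 2, Cdkn2c (-0.69, adjusted p = 0.0264) and Cdkn1b (-0.43, 0.0102). On day 9 (0 as reported) median-of-ratios scaling, quantile normalization and the replicate block each gave 1, Cdkn1b (adjusted p = 0.034, 0.0269 and 0.0432), and array weights gave 2, Cdkn1b and Cdkn2a (-0.56, 0.0374). Control day 3 against day 0 (1) gave 0 with only the groups compared. Control day 6 against day 0 (2) gave 1 with no filter, median-of-ratios scaling, quantile normalization or rescaling to nuclear genes, 0 with only the groups compared or array weights, and 0 to 2 without single libraries. Control day 9 against day 0 (2) gave 1 with a minimum of 5 FPKM, which leaves Cdkn2a untested. In that comparison Cdkn1b joined the 2 called genes, as lower, under 4 settings. These were a pseudocount of 5 (adjusted p = 0.046), median-of-ratios scaling (0.00529), quantile normalization (0.0192) and rescaling to nuclear genes (0.00197). Control day 9 against day 3 (1) gave 0 with no filter, a minimum of 5 FPKM, only the groups compared or the replicate block, 2 with array weights, and 0 to 1 without single libraries. Irradiated day 9 against day 3 (0) gave 1 with only the groups compared (Cdkn2b, adjusted p = 0.0465) and 4 with array weights. Array weights also raised the count over all genes, to 1242 against 282 as reported on day 3, 5610 against 822 on day 9, 1607 against 2 for the difference between days, 6336 against 2780 for control day 9 against day 3, and 3448 against 147 for irradiated day 9 against day 3. With only the groups compared the count fell to 0 against 42 on day 6, 1981 against 5824 and 360 against 5394 for control days 3 and 6 against day 0; with no filter it was 73 on day 6, 534 on day 9 and 66 for irradiated day 9 against day 3.

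Uncalled values changed sign as follows. Under median-of-ratios scaling Cdkn2c was -0.0134 for irradiated against control on day 9, and Cdkn2d was -0.0124, -0.0589 and -0.0795 at control days 3, 6 and 9 against day 0. Under quantile normalization these were -0.0226 for Cdkn2c, and -0.0172 and -0.0252 for Cdkn2d on days 6 and 9. After rescaling to nuclear genes they were -0.00644 for Cdkn2c, and -0.0574, -0.206 and -0.217 for Cdkn2d, with Cdkn2c at -0.123 and -0.098 on days 6 and 9 against day 0. Ccnd1 at control day 9 against day 0 was -0.0791, -0.0415 and -0.214 under these 3 scalings and -0.181 to 0.3 without single libraries. Mtap after radiation was -0.0264 (quantile), -0.0375 (array weights), -0.00213 (nuclear genes) and -0.0274 to 0.049 without single libraries. With the replicate block Cdkn2a on day 6 was 0.031. Leaving out single libraries gave, for irradiated against control on day 6, -0.53 to 0.30 for Cdkn2a, -0.64 to 0.24 for Cdkn2c and -0.29 to 0.11 for Cdkn2d, and on day 9 -0.344 to 0.0376 for Cdkn2b and -0.15 to 0.20 for Cdkn2c. In control skin it gave -0.18 to 0.47 and -0.033 to 0.39 for Cdkn2c on days 6 and 9 against day 0, -0.25 to 0.00106 for Cdkn2c on day 9 against day 3, and -0.0478 to 0.183 for Cdkn2d on day 6 against day 0.

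The shared replicate numbers were not shown to pair libraries: residuals of same-numbered irradiated and control libraries correlated at -0.12 to 0.30. Where a lone library was left in a group, it was taken to vary like the other groups. Cdkn2a rests on few fragments, which widens its counting error. Its FPKM values are also close to the added 1, so its fold changes on the log2(FPKM + 1) scale understate those of FPKM.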

Other observations

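As a share of the summed FPKM of the 5 genes, which is a ratio within each library and does not show which gene changed, Cdkn1b took 25.9% to 37.9% in the libraries of days 3 to 9, against 44.0% to 46.1% at control day 0. Unlike its level, this share overlapped between the arms on day 3, with 27.9% to 32.6% in irradiated skin and 30.1% to 32.1% in control skin. On day 6 it did not overlap, with 25.9% to 31.5% in irradiated skin and 31.6% to 32.0% in control skin, and on day 9 it overlapped again, with 27.1% to 30.2% in irradiated skin and 29.4% to 37.9% in control skin. Cdkn2a took 2.17% to 4.86% at irradiated day 9 and 3.70% to 6.25% at control day 9, its highest shares, and 0.927% to 1.24% at control day 0. These values were chosen after they were seen and were not tested.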
